A study of Caenorhabditis elegans with 4 samples.

Results

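Promoter sites without a divergent partner are regions of signal for the tagged protein K09A11.1 at the start of a protein-coding gene. The promoter window of that gene does not face that of a gene transcribed the other way. Such sites come from a ranked list that also holds weak regions meant as background, so a site need not be bound. They were chosen from the 3000 nuclear regions of highest signal in the list called on both replicates together (the pooled list, 29974 nuclear regions). Regions whose summit lay within 200 bp of a tRNA, snoRNA, snRNA or miRNA gene were removed (333 of the 3000). A summit was then kept when it fell in a promoter window, which runs for 1000 bp before and 200 bp after the 5′ end of a protein-coding gene in the annotation, but not in the windows of a minus-strand gene and of a plus-strand gene starting to its right. This left 963 regions of 3000, beside 375 between divergent genes and 1329 outside every promoter window (distal sites). Because the pooled signal and the position chose the sites, both are given here as descriptions without a test. The last site inside the limit, upstream of znf-593, had a pooled signal of 16.09 (rank 2991), and the first outside, upstream of irld-62, had 16.06 (rank 3004).

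The data are 4 chromatin immunoprecipitation sequencing (ChIP-seq) libraries from whole Caenorhabditis elegans hermaphrodites of strain OP372 (unc-119(tm4063) III; wgIs372), collected as late embryos. The strain stably carries wgIs372, which expresses K09A11.1 with a GFP-FLAG tag at its C terminus, and the precipitation used an antibody against GFP after sonication. The libraries come from 2 biological replicates with 2 technical libraries each, all of 1 genotype, so the data hold no comparison of conditions, and an untagged or K09A11.1-deficient strain was not analysed here. Every cell of the embryo was pooled, so binding in a few cells and weak binding in many cannot be told apart. The protein comes from a transgene, so its level may differ from that of the native gene.

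The signal is the value per region given by the submitters' peak caller relative to a control. Its scale has no stated unit, and the lists give no read depth. These ranked lists also hold weak regions meant as background for a test of rank reproducibility between replicates, the irreproducible discovery rate (IDR). The thresholded list that came out of that step holds 663 nuclear regions. Of the 963 sites, 192 (19.9%) were in it, against 30.9% of the divergent sites and 13.2% of the distal sites. The 192 were the sites of highest pooled signal, down to rank 661, so being in that list restates the pooled signal.

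K09A11.1 is annotated as a protein with a BED-type domain, a zinc finger fold found in DNA-binding proteins, including the Drosophila proteins BEAF and DREF, and in transposases. A promoter is the stretch before a gene where the transcription machinery assembles. In the compact genome of C. elegans many genes stand head to head and share the sequence between them. Others follow a gene on the same strand, either within an operon or with a promoter of their own. At a site without a divergent partner the sequence at the summit can therefore be read against the direction of 1 gene.

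The sequences at the summits come first, since the words and patterns described further on are read from them. Each line gives the summit base and 50 bases to each side of it, on the strand of the gene, from the RefSeq assembly of build WBcel235 (ce11). The first 6 are the sites of highest signal among the 596 that were open to printing (no exon overlap, at most 10% recurring words and the chromosomes given in the methods). The last 2, hsp-3 and mrck-1, are among those with the most leading words. Capitals mark the 10 leading words of 6 bases defined below, read on either strand.
ftt-2 (chrX:11605886-11605986, minus strand): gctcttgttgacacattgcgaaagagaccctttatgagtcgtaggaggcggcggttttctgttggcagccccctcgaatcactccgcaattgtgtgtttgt
rpl-3 (chrIII:3867536-3867636, plus strand): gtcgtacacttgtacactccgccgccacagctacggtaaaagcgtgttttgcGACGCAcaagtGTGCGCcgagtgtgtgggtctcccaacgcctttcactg
swsn-3 (chrIII:2768797-2768897, minus strand): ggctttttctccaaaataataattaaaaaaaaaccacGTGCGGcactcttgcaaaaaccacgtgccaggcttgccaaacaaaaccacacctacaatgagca
rps-28 (chrIV:1659204-1659304, plus strand): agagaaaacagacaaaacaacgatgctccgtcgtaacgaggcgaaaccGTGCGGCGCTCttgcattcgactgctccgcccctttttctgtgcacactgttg
C46F11.4 (chrIII:3664398-3664498, minus strand): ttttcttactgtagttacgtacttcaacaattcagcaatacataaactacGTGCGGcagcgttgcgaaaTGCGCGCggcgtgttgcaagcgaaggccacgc
plrg-1 (chrV:10808073-10808173, minus strand): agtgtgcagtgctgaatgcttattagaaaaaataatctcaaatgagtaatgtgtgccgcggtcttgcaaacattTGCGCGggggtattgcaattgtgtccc
hsp-3 (chrX:6092146-6092246, minus strand): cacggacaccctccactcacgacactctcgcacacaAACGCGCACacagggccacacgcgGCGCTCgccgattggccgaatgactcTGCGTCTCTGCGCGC
mrck-1 (chrV:6267578-6267678, minus strand): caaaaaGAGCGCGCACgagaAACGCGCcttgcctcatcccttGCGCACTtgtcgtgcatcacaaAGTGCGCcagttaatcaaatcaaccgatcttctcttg

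The ftt-2 window held none of the leading words, whereas the hsp-3 window held 8 of the 10 and the mrck-1 window 7. These last 2 were printed for their words, and the hsp-3 site had a pooled signal of only 40.5. Apart from ftt-2, the windows printed here for high signal each held at least 1 leading word. High signal thus occurred with these words, as at rpl-3, and without them, as at ftt-2.

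The 20 strongest sites lay at genes of varied annotated function. ftt-2, which encodes a 14-3-3 protein that binds phosphorylated partners, led with a pooled signal of 145.7. Its region had 82.3 in replicate 1 and 65.5 in replicate 2, and its summit stood 517 bp upstream of the gene. rpl-3, a ribosomal protein of the large subunit, followed with 144.7 pooled, 96.5 in replicate 1 and 48.2 in replicate 2. swsn-3, a component of the SWI/SNF chromatin remodelling complex, had 135.5 pooled, 97.0 in replicate 1 and 41.6 in replicate 2. All 3 lay among the 20 highest regions of each replicate list, so neither replicate alone carried them.

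The next sites were those of rps-28 (small ribosomal subunit, 114.6), K05C4.2 (annotated as a jagunal homolog, 107.5) and C46F11.4 (an RNA helicase, 96.9). They were followed by plrg-1 (pleiotropic regulator 1, 93.8), rpl-35 (large ribosomal subunit, 93.8) and cdc-48.1, an ATPase that extracts ubiquitylated proteins (92.5). tos-1 (92.4), nspc-17 (91.8), gly-13, an enzyme of N-glycan synthesis (90.4), and cox-5B, a subunit of cytochrome c oxidase (89.3), came after them. R148.3 (88.5), K12H4.5 (88.1), the kinase gene mrck-1 (86.2) and Y39A1A.9, annotated as a gamma-tubulin complex component (85.7), were next. The 20 highest ended with ccdc-47 (83.9), the ubiquitin hydrolase gene usp-4 (79.2) and T13C5.6, a lipid phosphatase gene (78.2). In the T13C5.6 window 20% of the 32-base words recur elsewhere in the genome, so its reads may be shared with other copies.

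The highest site of each chromosome was that of K05C4.2 on I, cdc-48.1 on II, rpl-3 on III, rps-28 on IV, plrg-1 on V and ftt-2 on X. On build ce11 these regions span 14721543 to 14721674 of chromosome I, 10563392 to 10563731 of II, 3867567 to 3867663 of III, 1659243 to 1659329 of IV, 10807953 to 10808292 of V and 11605802 to 11606076 of X. The rps-28 region also lay in the window of Y41D4B.4 on the same strand. The K05C4.2 and swsn-3 summits fell in introns, and those of the other 18 of the 20 strongest sites in intergenic sequence.

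Replicate 1 gave the higher value at most sites. A region with its summit within 100 bp was found in both replicate lists at 588 of the 963 sites (61.1%), in the replicate 1 list only at 257, in the replicate 2 list only at 89 and in neither at 29. Among the 588, the median signal was 14.3 in replicate 1 (range 5.16 to 97.0) and 8.60 in replicate 2 (range 2.73 to 65.5). Replicate 1 was the higher one at 466 of them. The scales of the lists need not be equal, so the direction describes the lists rather than the animals.

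Some sites went the other way. The rpl-35 region had 45.2 in replicate 1 and 52.1 in replicate 2, where it ranked 7 among nuclear regions. Y39A1A.9 had 37.8 in replicate 1 and 46.6 in replicate 2. hsp-3, which encodes a heat shock protein of the Hsp70 family, had 12.7 in replicate 1 and 25.7 in replicate 2. eef-1A.2, a translation elongation factor gene, had 15.2 and 26.7 in replicates 1 and 2. Ranks within each list were therefore not the same for these sites, although all 4 were in both lists.

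Across the 588 sites the log2 signals of both replicates had a Pearson correlation of 0.43 and a Spearman correlation of 0.33. The points share a control and were picked on the signal of both replicates together, so this is a description of the chosen sites. The share found in both lists was 87.2% for the 321 sites of highest pooled signal, 58.9% for the next 321 and 37.1% for the 321 lowest. Among the 3000 highest regions of both replicate lists stood 236 sites (24.5%), against 37.9% of the divergent and 13.3% of the distal sites. When the rule was applied to 1 replicate list alone, 938 sites came from replicate 1, of which 41.8% had a region in the lists of both, and 967 came from replicate 2, of which 36.2% did.

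**Figure D1:**
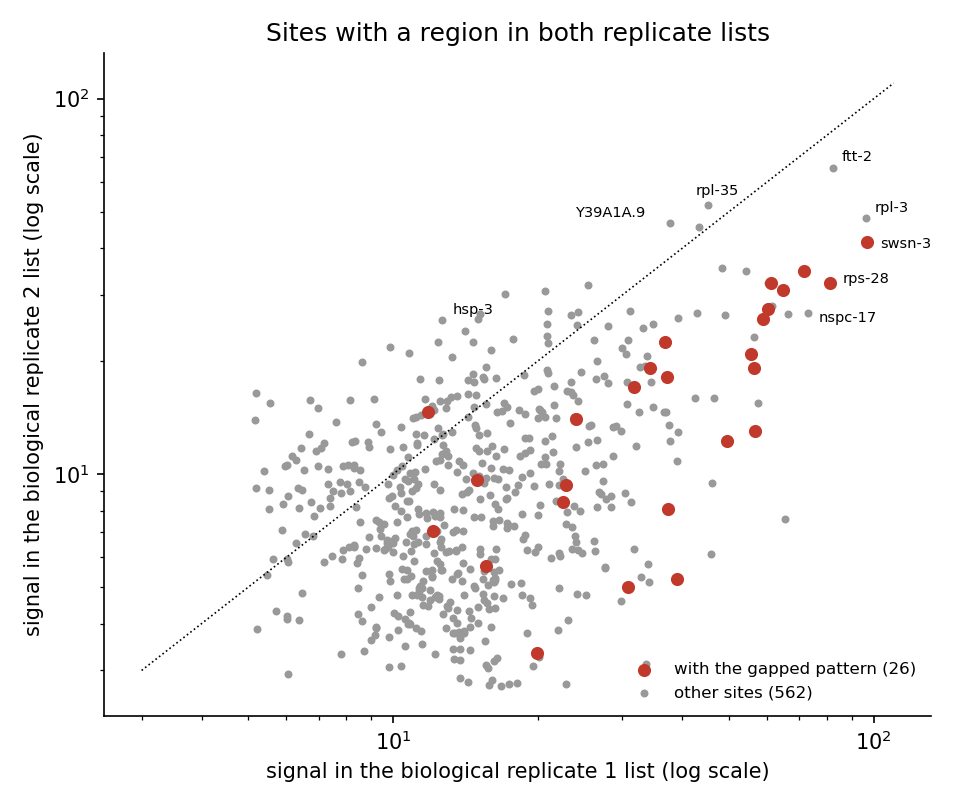
Signal of each site in the list of biological replicate 1 (horizontal, log scale) against that of biological replicate 2 (vertical, log scale), for the 588 sites with a region within 100 bp in both lists. Red points are the 26 sites with a gapped sequence pattern described in the text, grey points the other 562, and the dotted line marks equal values; 466 points lie below it.

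The sites stood upstream of gene starts and mainly in intergenic sequence. The summit lay upstream of the nearest annotated 5′ end at 863 sites (89.6%, exact 95% binomial interval 87.5 to 91.5, as for all shares here). The median position was 272 bp upstream (interquartile range -510.5 to -116.5 bp, negative meaning upstream). Divergent sites were as often upstream (89.3%) but closer, with a median of 141 bp. A 5′ end lay within 100 bp of the summit at 18.3% of the sites, against 36.0% of the divergent sites. The windows of divergent genes overlap where the genes are near each other, so part of this difference follows from the definition.

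To read these positions, the promoter sequence that meets the same definition was measured, 23.9 Mb over the 6 chromosomes. The 250 bp before a gene start held 349 sites (36.2%), although it makes up 21.8% of that sequence. The next 250 bp held 269 sites (27.9%, against 20.3% of the sequence). Between 501 and 750 bp upstream there were 140 sites (14.5%, against 20.05%), and farther out 105 (10.9%, against 19.7%). Downstream of the start, to 200 bp, were 100 sites (10.4%, against 18.2%). Density thus peaked just before the gene and was lower on both sides. Per Mb of sequence of its own kind there were 40.3 sites without a divergent partner, 161 divergent sites and 17.9 distal sites.

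By annotation, 635 summits (65.9%) were intergenic, 198 (20.6%) intronic and 130 (13.5%) exonic. The promoter sequence of the same definition was 46.1% intergenic, 24.0% intronic and 29.9% exonic. Exonic summits thus had a smaller share than exonic sequence, and they were weaker, with a median signal of 18 against 21.3 at intergenic summits. They made up 8.10% of the 321 strongest sites, 11.2% of the middle 321 and 21.2% of the weakest 321. The exonic sites lay on both sides of the gene start, at a median of 13 bp upstream. Their spread was wide (interquartile range -365.75 to 58.75 bp, interval of the median -171 to 11 bp).

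**Figure D2:**
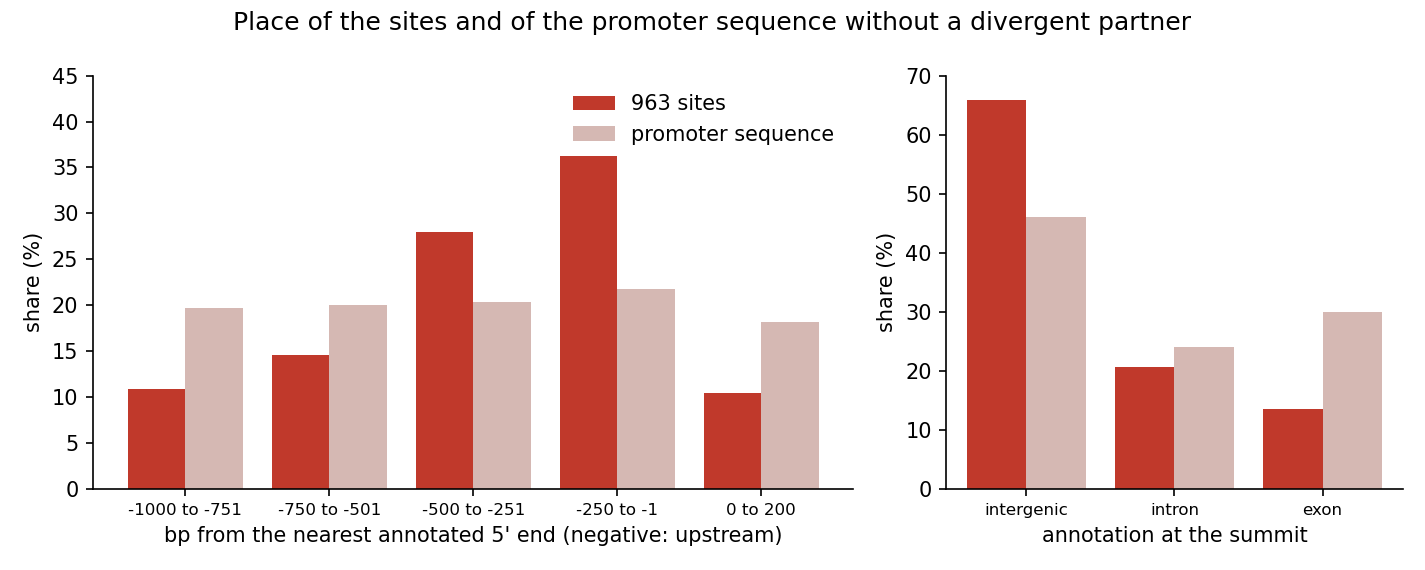
Left: share of the 963 summits (dark) and of promoter sequence without a divergent partner (light) by distance from the nearest annotated 5′ end in bp; right: the same by annotation at the summit. Sites exceed sequence in the 500 bp upstream of the start (36.2% and 27.9% of sites) and in intergenic sequence (65.9% against 46.1%).

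Nearly all sites had 1 gene in reach. A single gene's window held the summit at 939 sites, and at 24 the windows of same-strand genes overlapped. The next gene upstream ran on the same strand at 566 sites (58.8%), at a median distance of 930 bp, against 50.9% of all protein-coding genes. It ran on the opposite strand at 363 sites (37.7%), at a median of 3565 bp, against 42.2% of all genes. The rule itself removes near neighbours on the opposite strand, so these shares describe the set. The measures also differ. At each site the neighbour was sought from the nearest annotated 5′ end, whereas all genes were counted once from their outermost one. The remaining 34 sites (3.53%) belonged to genes that start inside another gene, against 6.94% of all genes.

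Chromosome X held the most sites and chromosome V the fewest. There were 176 on I, 156 on II, 167 on III, 147 on IV, 137 on V and 180 on X. X carried 18.7% of the sites, against 13.7% of protein-coding genes, and V 14.2%, against 25% of genes. Of the divergent sites only 4.27% were on X. Divergent sequence made up 3.30% of promoter sequence on X and 9.26% to 10.9% on the other chromosomes. Per Mb of promoter sequence of their own kind, sites without a divergent partner numbered 48.1 on X, 24.0 on V and 35.9 to 55.9 on the others, and divergent sites 125 on X, 95.9 on V and 146 to 233 on the others. By density X thus lay inside the range of the autosomes in both classes, and V had the lowest value in both.

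GC content was higher at the summit than around it. In the window reaching 50 bp to each side of the summit the GC share averaged 41.8% ± 10.1 (SD, n = 963 sites), against 35.6% ± 9.15 in equal windows 200 bp upstream on the gene's strand and 36.3% ± 9.40 in windows 200 bp downstream. The summit was higher than the upstream window at 646 sites, lower at 291 and equal at 26. The promoter sequence of the same definition had 35.3%. Divergent summits averaged 43.8% and distal summits 39.1%, so the sites lay between them. Sites are not biological replicates, and the spread is that between places in 1 genome.

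GC share and signal went together within the set. The 321 sites of highest signal averaged 47.7%, the middle 321 39.97% and the lowest 321 37.9%. The Y39A1A.9 window had the highest share of all, 72.3%. Neighbouring C and G (CpG steps) averaged 5.20 per summit window and 3.38 per upstream window, against 6.70 at divergent and 3.94 at distal summits and 3.06 in windows at all promoters. Sites chosen from the replicate 1 list alone had a median GC share of 39.6%, against 42.6% in the pooled choice. The control track was not analysed here.

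**Figure D3:**
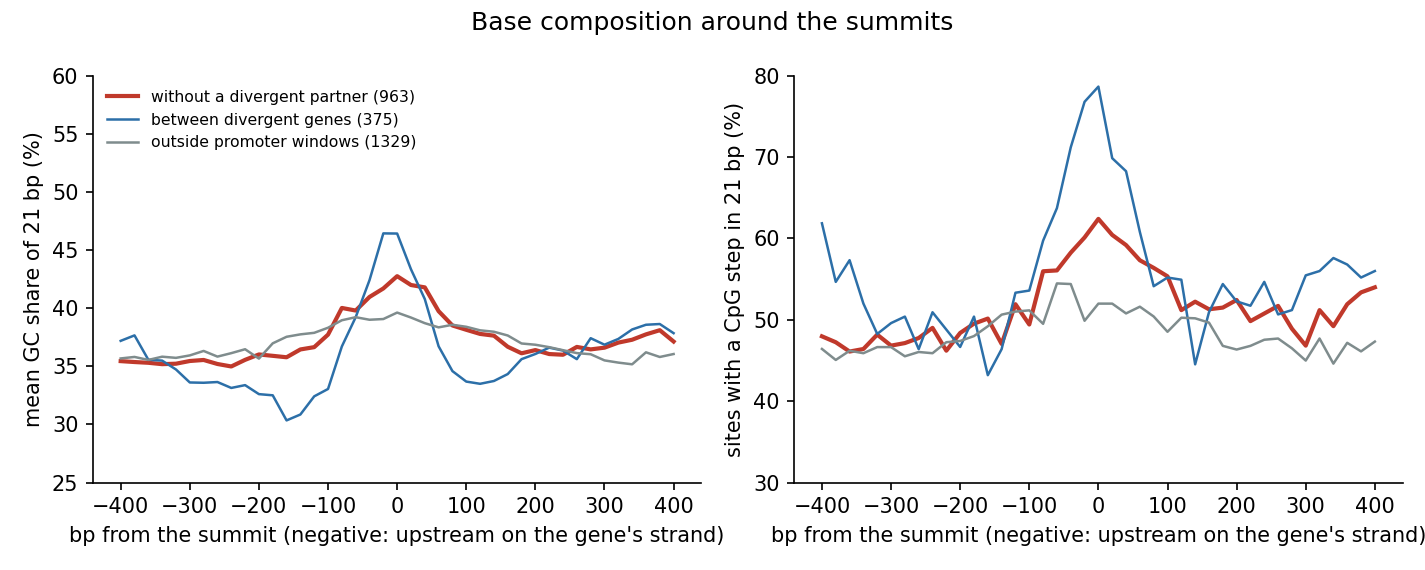
Mean GC share in 21 bp steps (left, %) and share of sites with a CpG step in 21 bp (right, %) by distance from the summit in bp on the strand of the gene, for the 963 sites without a divergent partner (red), 375 divergent sites (blue) and 1329 distal sites (grey). All 3 curves are highest near the summit, and the red curve lies between the blue and the grey there.

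Words of 6 bases were counted to see which sequences mark the summit. Every word of 6 letters, read on both strands, was scored as present or absent in the summit window and in the upstream window of each site, and an exact two-sided sign test over sites was adjusted by the Benjamini-Hochberg method across all words. At an adjusted p under 0.05, 165 words (7.93% of those tested) were more frequent at the summit and 92 (4.42%) less frequent. Of the 165, 128 had at least 4 G or C and 118 held a CpG step. Of the 92, 88 had at least 4 A or T, and none held a CpG step. With the sites chosen from the replicate 1 list alone, leaving out replicate 2, the counts were 88 and 25.

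The leading word was CGCGCA, present at 94 summits (9.76%), against 21 upstream windows (2.18%), with an adjusted p of 3.89e-10 in the exact sign test. GAGCGC stood at 75 summits and 12 upstream windows (adjusted p of 1.34e-09, exact sign test). ACGCGC and the overlapping word GCGCAC stood at 85 summits each and at 18 upstream windows each. GACGCA was present at 109 summits (11.3%) and 32 upstream windows (3.32%). GCGCGC stood at 66 summits and 12 upstream windows, and CCGCAC at 69 and 12. AACGCG was counted at 78 summits and 19 upstream windows, CGTCTC at 122 (12.7%) and 45 (4.67%), and AGTGCG at 67 and 14. The adjusted p of these 10 ranged from 3.89e-10 to 3.93e-07 in the exact sign test. The copies lay at medians of 19 to 29 bp from the summit.

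Among the words that were rarer at the summit, AAGTAT led with 19 summits (1.97%), against 68 upstream windows (7.06%; adjusted p of 7.61e-06, exact sign test). ATAAAT stood at 110 summits and 196 upstream windows, and AAATTA at 141 and 232. TAAATA was found at 90 summits and 165 upstream windows, TAAAAA at 243 and 342, and TAGATA at 18 and 56. The run AAAAAA stood at 336 summits and 427 upstream windows, AATTTA at 123 and 195, TGTAAA at 56 and 109, and TCTAAA at 58 and 112. These 10 hold at most 1 G or C.

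The 10 leading words overlap in sequence, so a site can hold several of them. At least 1 was present at 399 summits (41.4%, interval 38.3 to 44.6), against 135 upstream windows (14.02%) and 159 downstream windows (16.5%). The share was 62.6% for the 321 sites of highest signal, 36.8% for the middle 321 and 24.9% for the lowest 321. It was 55.5% at divergent summits, 22.7% at distal summits and 13.1% in windows at all 19973 promoters. The words were not equally shared between the kinds of site. GCGCAC stood at 8.83% of the summits, against 18.1% of divergent and 2.78% of distal summits, whereas CGTCTC stood at 12.7%, against 8.27% of divergent and 9.18% of distal summits. These differences between kinds of site were not tested.

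Most of these words are made of G and C, and so the words and the base composition move together. At the 272 sites whose summit and upstream windows differed by at most 5 percentage points in GC share, 1 word passed the same test, GCGCGC, with 17 summits against 0 upstream windows (exact upper limit for the upstream share 1.35%). A leading word stood at 78 of these summits (28.7%, interval 23.4 to 34.4), against 45 upstream windows (16.5%, interval 12.3 to 21.5). The leading words were picked for a higher count at the summits of the 963 sites, which include these 272, so the higher summit share is built into that choice and carries no weight of its own. The choice of sites was made after the data were seen.

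**Figure D4:**
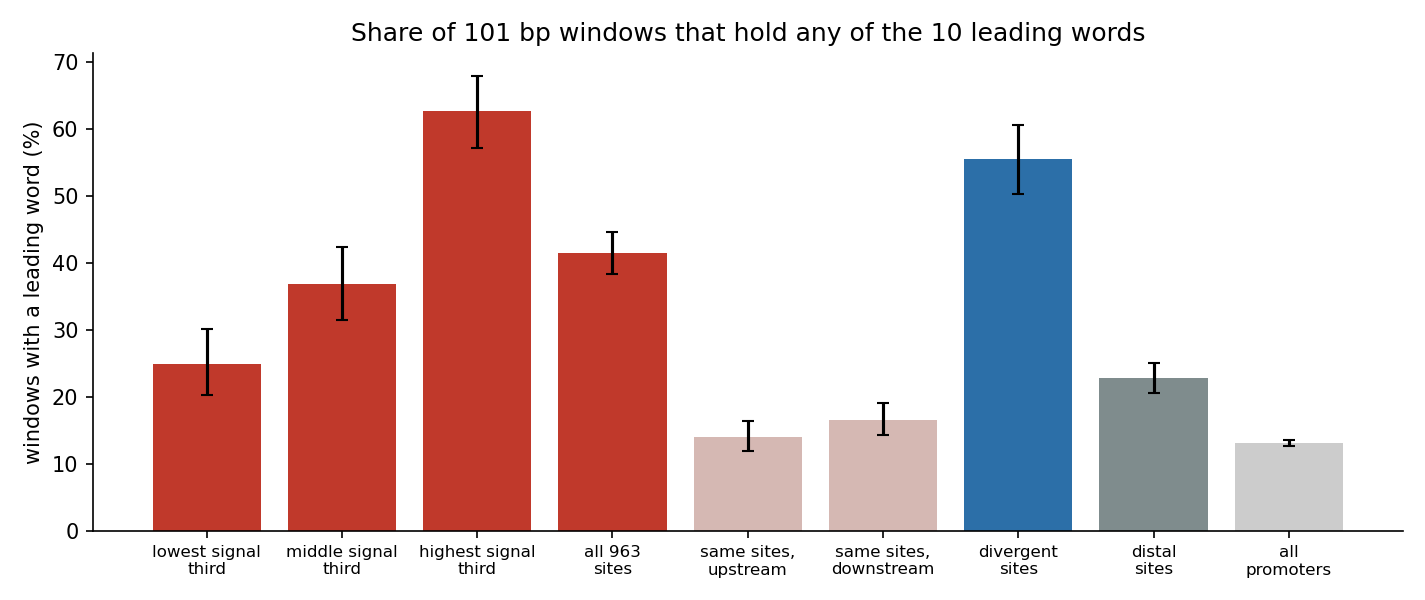
Share (%) of windows with any of the 10 leading words, for the sites split by signal and together (red), their upstream and downstream windows (light), divergent sites (blue), distal sites (dark grey) and all promoters (light grey). Bars start at 0 and whiskers are exact 95% binomial intervals; the share is 24.9%, 36.8% and 62.6% by increasing signal.

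A longer pattern recurred in the strongest summit windows: GTGC, then 7 bases of any kind, then TTGC. It was read from the printed windows after several spellings had been looked at, so its counts describe these sites and carry no test. The 8 sites of highest signal that hold it and are open to printing are aligned here on that pattern, each in 31 bases with both fixed parts in capitals, to show what the free positions share. The strand printed is the one on which the pattern reads as spelled.
swsn-3 (chrIII:2768838-2768868, minus strand): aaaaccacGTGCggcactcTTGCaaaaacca
rps-28 (chrIV:1659244-1659274, plus strand): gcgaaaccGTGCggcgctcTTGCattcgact
C46F11.4 (chrIII:3664426-3664456, minus strand): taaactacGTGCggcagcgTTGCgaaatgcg
plrg-1 (chrV:10808099-10808129, minus strand): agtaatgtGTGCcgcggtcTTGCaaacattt
R148.3 (chrIII:3175153-3175183, plus strand): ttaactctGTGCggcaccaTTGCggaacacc
ccdc-47 (chrIII:3916802-3916832, plus strand): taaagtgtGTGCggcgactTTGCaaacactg
usp-4 (chrIV:6756646-6756676, plus strand): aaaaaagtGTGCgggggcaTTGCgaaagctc
F39G3.3 (chrV:4731571-4731601, plus strand): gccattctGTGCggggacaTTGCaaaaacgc

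The free positions were not evenly filled. Over all 29 copies at the summits, the base after GTGC was G in 24 and the one after that G in 23, and C followed in 18. The base before GTGC was C in 15 copies and T in 14. The base after TTGC was G in 17 copies and A in 12, and the next 3 positions were A in 23, 23 and 22 copies. The fixed letters leave these positions free, but the pattern was spelled from some of these same windows. GTGCGG is also the leading word CCGCAC read on the other strand. The bases at the free positions may thus be partly built into the choice, and their counts carry no weight of their own.

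The pattern was present at 27 of the 963 summits (2.80%, interval 1.86 to 4.05), against 2 upstream windows, 1 downstream window and 44 of the 19973 windows at all promoters (0.220%). Without the 12 strongest eligible sites, where it was first seen, it stood at 22 of 951 (2.31%). Of the 27, 24 were among the 321 sites of highest signal, 3 among the middle 321 and 0 among the lowest 321 (exact upper limit 1.14%). It stood at 32 of 375 divergent summits (8.53%), 9 of 1329 distal summits (0.677%) and 2 of 333 summits at small RNA genes (0.601%). The pattern was thus found at promoter sites of both kinds and seldom elsewhere among the 3000 regions. The kinds of site also differ in signal, with which the pattern went together here. The median pooled signal was 20.3 at the 963 sites and 23.7 at divergent sites. It was lower at distal sites (18.9) and higher at small RNA genes (32.7). The shares were not compared at like signal, and their difference was not tested.

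At the sites it mostly faced 1 way. Of the 29 copies, 26 read GTGC to TTGC on the strand of the gene and 3 on the other. The pattern was spelled from windows printed on the strand of the gene. The facing of the copies in those windows is thus built into the choice, and copies elsewhere were not counted apart. The copies were centred at a median of 15 bp from the summit, and 22 of the 27 summits were intergenic, at a median of 204 bp upstream of the gene. The median pooled signal of the 27 was 56.3. In the thresholded list were 20 of them (192 of all 963 sites), which restates their high pooled signal. The genes include swsn-3, rps-28, K05C4.2, C46F11.4, plrg-1, ccdc-47, usp-4, the nucleoporin gene npp-8 and ubc-9, the SUMO-conjugating enzyme. The set-25 and mec-6 sites also hold it, but their whole windows recur in the genome, so their place is uncertain. The mec-6 site had no region in the replicate 1 list.

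A different word, GACGCAG, stood at 69 summits (7.17%, interval 5.62 to 8.98), against 16 upstream windows (1.66%), 14 downstream windows and 1.21% of windows at all promoters. It extends the leading word GACGCA by 1 base and was chosen after the windows had been read. The 6 strongest sites that hold it and are open to printing are aligned here, with the word in capitals, to set them beside the gapped pattern.
zfp-1 (chrIII:8802096-8802126, minus strand): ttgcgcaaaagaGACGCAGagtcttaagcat
jun-1 (chrII:9113031-9113061, minus strand): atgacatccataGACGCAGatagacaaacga
daf-19 (chrII:10169520-10169550, minus strand): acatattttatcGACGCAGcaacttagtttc
eelo-2 (chrIV:17249895-17249925, minus strand): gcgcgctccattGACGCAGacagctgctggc
hsp-3 (chrX:6092143-6092173, plus strand): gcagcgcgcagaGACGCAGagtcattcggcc
F53C11.5 (chrV:13789581-13789611, minus strand): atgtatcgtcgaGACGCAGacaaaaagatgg

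GACGCAG was spread more evenly over signal than the gapped pattern. The gapped pattern was read from windows of the strongest sites, whereas GACGCAG extends a word picked over all 963. Part of this contrast is thus built into the choice. It stood at 37 of the 321 strongest sites (11.5%), at 16 of the middle 321 and at 16 of the lowest 321 (4.98% each). It was found at 4.80% of divergent and 5.87% of distal summits, and the intervals of these and of the 963 sites overlap. Of its 70 copies, 26 read as spelled on the strand of the gene and 44 on the other. The median signal of the 69 sites was 24.3, and 19 were in the thresholded list. No site held both GACGCAG and the gapped pattern. These stood at 69 and 27 of the 963 sites. Even unrelated placing would leave few shared sites at such shares, so their absence carries no weight.

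The strongest GACGCAG sites were upstream of zfp-1, a zinc finger protein gene (74.5 pooled, 48.9 in replicate 1 and 26.5 in replicate 2), T28B8.1 (55.4) and unc-108, which encodes the small GTPase Rab-2 (48.5). coel-1, a tubulin chaperone cofactor gene (45.3), jun-1, a transcription factor gene (44.6), and daf-19, the RFX factor of cilium formation (42.4), came next. The daf-19 region rested largely on replicate 1, with 33.6 there and 3.12 in replicate 2. crh-1, the CREB homolog (22.0), par-3, a cell polarity gene (23.3), and egl-4, a cGMP-dependent kinase (26.0), were further down.

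Other short sequences were counted in the same windows, by the letters given and on both strands. GAGAGAG, of GA repeats, stood at 86 summits (8.93%), against 41 upstream windows (4.26%), 5.87% of divergent, 9.41% of distal summits and 1.80% of all promoters. The GC box GGGCGG stood at 54 (5.61%), against 24 upstream (2.49%), and GCGCGAA, a core of E2F sites, at 20 (2.08%) and 7. The E-box CACGTG stood at 21 summits and 11 upstream windows, TGACGTC of CREB-type sites at 11 and 8, and GCGCATG of NRF sites at 7 and 3. The YY1 core GCCAT followed by any base stood at 83 and 74, the BEAF core CGATA at 111 and 121, and the B-box core GTTCGA followed by any base at 30 and 33.

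Fewer summits than upstream windows held the TATA word TATAAA (87 against 125), the GATA core TGATAA (56 against 88) and a run of 7 T (168 against 227). The same held for CCGGAA of ETS sites (19 against 33), the paired heat shock word, GAA and TTC 2 bases apart (41 against 69), and the splice acceptor TTTTCAG (72 against 88). A match to letters is not a bound site of the factor.

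The genes with a site were next sorted by function. A site lay in the promoter window of 946 of 19973 protein-coding genes (4.74%), and 923 genes (4.62%) had the 5′ end nearest to one. The lists below were matched by symbol, and each share is to be read against the 4.74% of all genes. The number of genes in each list with a divergent site is given beside, and 763 of all protein-coding genes (3.82%) had one. Most lists include genes whose site was missing from at least 1 replicate list. These were 5 of 11 chromatin regulators with a site, 4 of 14 genes of membrane traffic, 3 of 8 of ubiquitin conjugation and 2 of 4 of the vacuolar pump. In the proteasome, splicing, pan-neuronal and neuropeptide lists no such gene was found.

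Within protein synthesis the lists ranged widely. Of 81 cytosolic ribosomal protein genes 18 (22.2%, interval 13.7 to 32.8) had a site without a divergent partner and 37 (45.7%) a divergent one. Beyond rpl-3, rps-28 and rpl-35 these included rpl-41.2, with a pooled signal of 49.8, and rpl-23, with 44.98. At the lower end were rps-17 (16.7) and rpl-42 (16.3), and 9 of the 18 were missing from at least 1 replicate list. Among translation factors 9 of 40 (22.5%) had a site, beside 8 with a divergent one, and the sites were led by eif-3.C (46.4), eef-1A.2 (42.1) and eif-3.B (40.3), subunits of initiation factor 3 and an elongation factor. Of aminoacyl-tRNA synthetases 1 of 32 (3.13%) had one (gars-1, 20.05, in the replicate 2 list only) and 4 a divergent one. Of mitochondrial ribosomal proteins 4 of 70 (5.71%) had one, led by mrpl-28 (19.7), and 9 a divergent one. Of splicing factors 1 of 55 (1.82%) had one (rsp-6, 28.9) and 14 a divergent one.

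Of 69 genes of the respiratory chain and ATP synthase 10 (14.5%) had a site and 18 a divergent one. Those with a site without a divergent partner include cox-5B, cyc-1 of complex III (51.6), cox-5A (46.8) and nduf-11 of complex I (45.4), whose region was in the replicate 2 list only. Of 19 genes of the TCA cycle 4 (21.1%) had one, beside 3 with a divergent one, and the sites were led by sucl-1 (31.6) and cts-1, citrate synthase (19.1). The cts-1 region was in the replicate 2 list only. Of 20 genes of the vacuolar proton pump 4 (20%) had one, beside 2 with a divergent one, and the sites were led by vha-12 (27.9) and vha-13 (25.1).

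In membrane traffic 14 of 94 genes (14.9%) had a site, beside 14 with a divergent one, and the sites were led by sec-24.1 of the COPII coat (52.2) and vps-25 of the ESCRT machinery (38.9). The vps-39 site (33.6) lies in sequence that recurs whole in the genome. Of 69 chaperone genes 7 (10.1%) had one, beside 15 with a divergent one, and the sites were led by hsp-1 (68.8), hsp-3 (40.5) and dnj-9 (37.6). Of 56 genes of ubiquitin conjugation 8 (14.3%) had one, led by ubc-25 (27.4), and 5 a divergent one. Of 33 proteasome genes 3 (9.09%) had one, rpt-6 (38.2), rpn-11 (27.4) and pas-5 (19.6), and 9 a divergent one.

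Chromatin regulators had a site at 11 of 86 genes (12.8%) and a divergent one at 8. After swsn-3 came set-25, a histone H3 lysine 9 methyltransferase (44.3), cbp-1, a histone acetyltransferase (40.4), and bet-2, a bromodomain protein (34.5). Of 72 histone genes 6 (8.33%) had one, beside 8 with a divergent one, and the sites were led by his-15 (34.3), although histone genes are near-identical copies and reads may be split among them. Of 58 cell cycle genes 7 (12.1%) had one, beside 6 with a divergent one, and the sites were led by cdc-48.1, the spindle checkpoint gene mdf-1 (54.4) and cdk-7 (45.2). Of 38 genes of actin, tubulin and kinesins 4 (10.5%) had one, beside 3 with a divergent one, and the sites were led by klp-13 (53.0).

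The lists of single tissues are short and their intervals wide. Of 22 muscle genes 4 (18.2%, interval 5.19 to 40.3) had one and 0 a divergent one. The 4 were unc-112 (37.3), pat-3 (17.6), the myogenic factor hlh-1 (16.9) and mlc-3 (16.5). Of 19 pan-neuronal genes 3 (15.8%, interval 3.38 to 39.6) had one, syd-2 (43.7), egl-21 (22.5) and snb-1 (18.2), and 0 a divergent one. Of 13 epidermal genes 2 (15.4%, interval 1.92 to 45.4) had one, nhr-23 (21.6) and nhr-25 (20.5), and 0 a divergent one. Of 23 germline genes 2 (8.70%, interval 1.07 to 28.0) had one, pie-1 (18.7) and mex-6 (17.8), and 1 a divergent one. None of 15 intestinal, 14 pharyngeal, 63 homeobox ceh or 163 cuticle collagen genes had one. The upper limits of the exact intervals for these 4 lists were 21.8%, 23.2%, 5.69% and 2.24%. A divergent site was found at 1 ceh gene, 1 collagen gene and none of the intestinal and pharyngeal genes. Among the tissue sites named, those of unc-112, hlh-1, nhr-23, nhr-25 and mex-6 had no region in the replicate 2 list. The others were in both lists.

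Among 269 nuclear hormone receptor genes 10 (3.72%) had a site, beside 3 with a divergent one. Of these 10 genes, 6 had a site missing from at least 1 replicate list, and the sites were led by nhr-48 (51.9). Among 1310 chemoreceptor genes 11 (0.840%, interval 0.420 to 1.5) had one, beside 8 with a divergent one, and the sites were led by srxa-13 (36.4), whose window recurs whole in the genome, and srh-2 (23.8). Of 240 C-type lectin genes 2 (0.833%) had one, clec-196 (21.01) and clec-97 (16.3), and 3 a divergent one. Of 140 neuropeptide genes 1 (0.714%) had one, ins-39 (57.4), and 0 a divergent one.

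**Figure D5:**
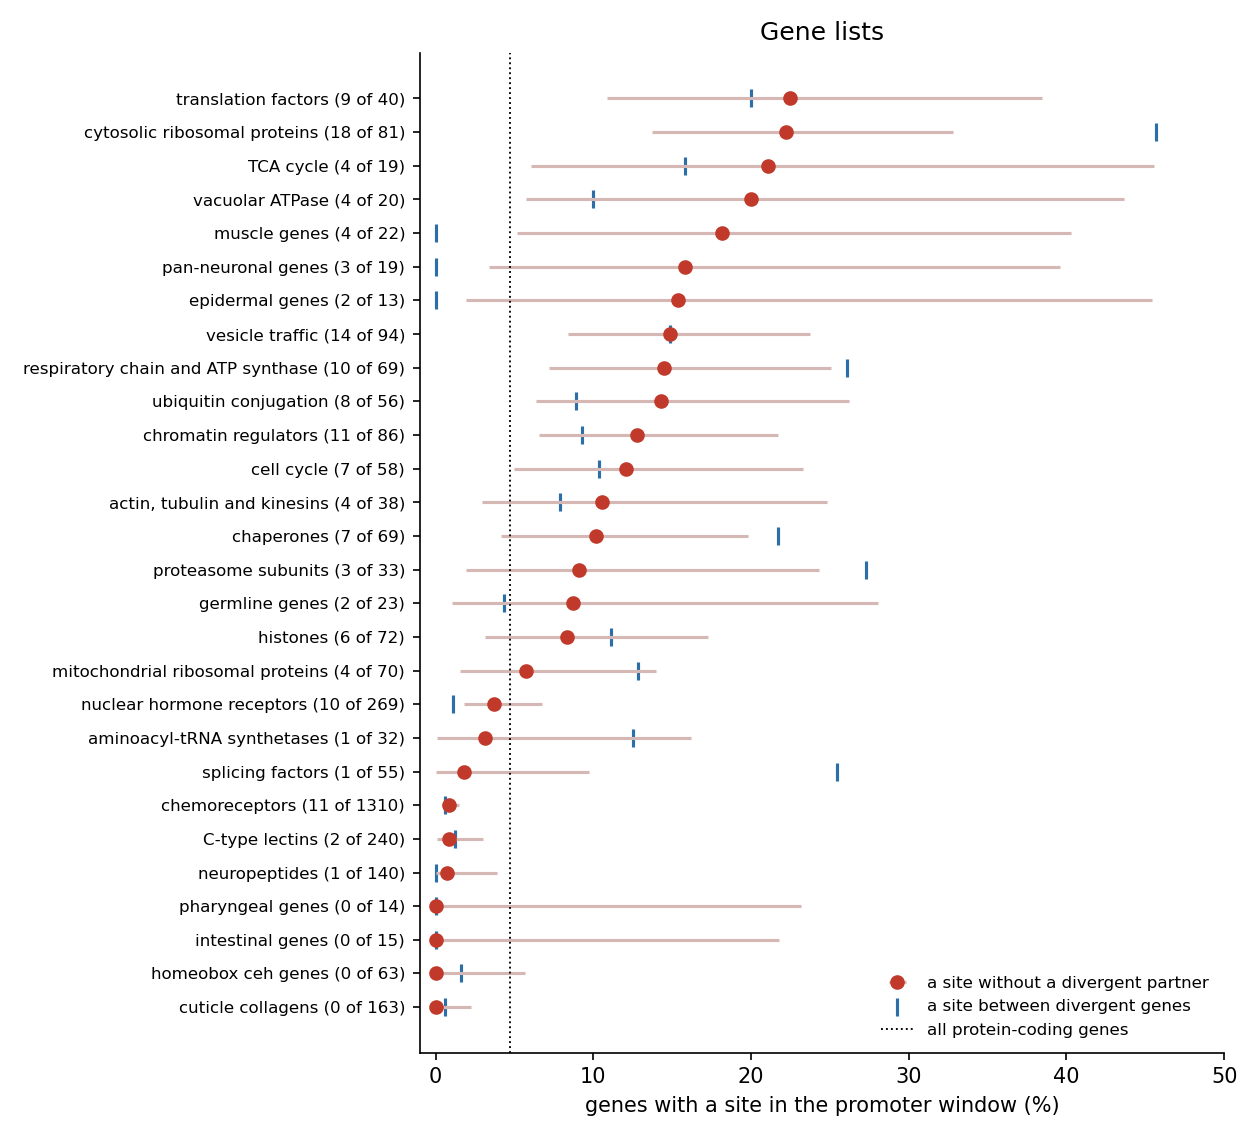
Share (%) of the genes of each list with a site without a divergent partner in the promoter window (red points, whiskers exact 95% binomial intervals) and with a divergent site (blue bars); the dotted line is the 4.74% of all protein-coding genes. Translation factors and cytosolic ribosomal proteins stand highest (22.5% and 22.2%), and chemoreceptors, lectins, neuropeptides, collagens and ceh genes lie at or below 0.840%.

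K09A11.1 itself, at 13262495 to 13264589 on the plus strand of chromosome X, had no site of this kind. The nearest region of the pooled list lay 3816 bp upstream of it, with a signal of 11.9 and rank 8462.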

How the data were processed

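Per the deposited notes, the authors called regions on build ce11 for replicate 1, replicate 2 and both together against 1 control, merging technical libraries; no label or note used here names an aligner or a caller. The deposited signal of each region is the authors' own and was used to rank and describe. Lists on build ce10 were left out. Sites, flanks and words were computed in Python 3.11.15 with numpy 2.4.6 and scipy 1.17.1 (figures: matplotlib 3.10.9) from Ensembl release 115 gene models and the RefSeq genome of the same build. Windows at all promoters were centred 272 bp upstream of the outermost 5′ end. Printed sequences exclude chromosome I and exons. The word test was tried on simulated windows, but the outcome is not given here and adds no weight to its p-values. Sites are not biological replicates, and intervals cover counting error only. Named genes are the 20 highest sites, up to 4 per gene list, the highest per chromosome and per gene arrangement, those at the limit and K09A11.1; genes beside the patterns and others were added after their values were seen. Sites, 28 gene lists and 16 motifs were chosen with earlier results of these data known. Alternatives are given in the closing section.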

Additional observations from a re-analysis of the deposited data

How the results depend on the processing

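The number of sites was 313, 638 and 1563 with the 1000, 2000 and 5000 highest regions and 192 in the thresholded list. The share upstream of a gene start was 95.2% with the 1000 highest regions, 97.9% in the thresholded list, 91.6% with promoter windows of 500 bp upstream, and 87.1% to 87.4% when either replicate was left out. The median position was 204 bp upstream (-204) with the shorter windows. The median GC share was 48.5% with the 1000 highest regions, 49.5% in the thresholded list and 39.6% to 42.6% when either replicate was left out. Words more frequent at the summit numbered 59 in the thresholded list, 88 in windows of 61 bp, 88 to 119 when either replicate was left out and 1 at sites of like GC share, an alternative added after seeing the data. Words less frequent numbered 33 in the thresholded list, 26 in windows of 61 bp, 59 with the downstream flank, 147 with the shorter promoter windows, 25 to 73 when either replicate was left out and 0 at sites of like GC share. The share in both replicate lists was 87.5% with the 1000 highest regions, 94.3% in the thresholded list, 36.2% to 41.8% when either replicate was left out, 38.4% within 50 bp and 75.4% within 200 bp. Fewer sites enter the word test in the smaller lists; for the other shifts the cause was not tested. All 10 leading words passed in every alternative except that at sites of like GC share, where 1 did. No paired analysis was possible because all libraries belong to 1 group. Depth limits cannot be given, since the lists hold no read counts.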

Other observations

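Some genes had more than 1 site. Of the 923 genes whose 5′ end was nearest to a site, 39 had several, 79 sites in all. T24B8.3 had 3, with summits at positions 9060565, 9061843 and 9062092 of chromosome II and pooled signals of 34.1, 30.4 and 26.7, the first before a different annotated 5′ end than the other two. At ftt-2 the site at 517 bp was joined by a weaker one at 717 bp upstream with 57.9. unc-108 had 48.5 at 527 bp before one annotated 5′ end and 34.4 at 55 bp before another, with summits at 3824420 and 3822828 of chromosome I. cbp-1 had 40.4 at 909 bp and 18.9 at 334 bp before the same 5′ end. Neighbouring summits were at most 340 bp apart in 14 pairs, so some of these regions may share reads. These genes were picked for the text after their values were seen.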
